A study of Mus musculus with 4 samples.

Results

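The replication-dependent histone genes are the 68 rows of the deposited table whose symbol begins with Hist1h, Hist2h, Hist3h or Hist4h and does not end in -ps, out of 24972 rows. They fall into 5 classes: 6 genes of the linker histone H1, 19 of H2A, 18 of H2B, 12 of H3 and 13 of H4. The tissue was the mandibular dental arch, the region of the lower jaw that bears teeth, taken from mice at embryonic day 17.5. There were 2 libraries with both Ascl5 alleles wild type (Ascl5WTWT, libraries 15 and 20) and 2 homozygous for a variant allele (Ascl5MutMut, libraries 18 and 14, called mutant here). The labels name no strain, no treatment and no molecular description of the variant, and no allele shared by all embryos. Nothing in them says that the libraries come from separate litters or how embryos were pooled. The p-values thus measure only the spread among 4 libraries, some of which may be technical.

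Histones package DNA. H2A, H2B, H3 and H4 form the core of the nucleosome, and H1 binds the DNA that links nucleosomes. Replication-dependent histone genes sit in clusters, are copied into RNA mainly during S phase, and make most of the histone that new DNA needs. Their mRNAs usually end just after a short stem-loop, which the protein Slbp binds, and carry no poly(A) tail. Some of the genes also give polyadenylated transcripts that run past the stem-loop or are spliced, a form described in cells that differentiate. The stranded mRNA library kit named in the labels selects polyadenylated RNA, so the values below describe the polyadenylated share of histone RNA, and total histone mRNA was not measured. In whole tissue, fewer cells of a type and less RNA per cell cannot be told apart.

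The stem-loop is shown first, because it separates the usual tailless mRNA from the longer forms that these libraries can hold. In the GENCODE M21 transcripts (GRCm38, the assembly that mm10 denotes), the pattern GGNNCTNNNNAGNNCC, read on the transcript strand with all 6 stem base pairs matched around a loop of 4 bases, was searched in the longest coding transcript of each gene. It lay after the stop codon in 45 of 68 genes, 21 to 58 bases beyond it. Of the 23 others, 15 have annotated transcripts that end at the stop codon or at most 2 bases after it, so that no 3′ sequence could be searched, and 1 (the pseudogene Hist1h2al) has no annotated stop codon. The other 52 genes have some annotated 3′ sequence, and in 7 of these the search found no stem-loop. That sequence can be too short to hold one. In Hist2h3b the stop codon ends at base 451 of 488, and in Hist1h1a at base 693 of 741. In Hist1h2bp, also among the 7, another annotated transcript held the pattern. Among 58725 coding transcripts of other genes, 0.376% held the pattern anywhere. The commonest form was in 25 genes of H1, H2A, H2B and H3, and the H4 genes had other stems. The sequences below give 5 bases on either side in lower case and the stem-loop in capitals. They cover the 2 highest genes with a long annotated tail (Hist1h1c, Hist3h2a), the highest gene annotated to end at the stem-loop (Hist2h2aa1), an H3 gene whose loop was found in no other H3 gene (Hist1h3g), an H3 gene with low mutant values (Hist1h3a), and 2 H4 stems (Hist1h4i, Hist1h4b).
Hist1h1c: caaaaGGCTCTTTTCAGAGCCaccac
Hist3h2a: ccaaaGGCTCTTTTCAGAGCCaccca
Hist2h2aa1: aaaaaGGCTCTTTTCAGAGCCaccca
Hist1h3g: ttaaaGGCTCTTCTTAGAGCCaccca
Hist1h3a: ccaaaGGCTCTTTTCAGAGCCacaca
Hist1h4i: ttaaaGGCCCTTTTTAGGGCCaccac
Hist1h4b: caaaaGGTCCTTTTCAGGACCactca
On GRCm38 they lie at chr13:23739507-23739532 (plus strand), chr11:58955167-58955192 (plus), chr3:96246027-96246052 (plus), chr13:23535884-23535909 (plus), chr13:23761885-23761910 (minus), chr13:22040961-22040986 (minus) and chr13:23757361-23757386 (plus), in the same order, all in 3′ untranslated sequence. RefSeq's gene models end within 10 bases after the stem-loop in 43 of the 45 genes. The exceptions were Hist1h2be, which runs 1861 bases past it, and Hist1h3e, which runs 428 bases past it. GENCODE instead carries 23 of the 45 more than 100 bases past the stem-loop, and 21 of those 23 end within 10 bases of it in RefSeq.

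The normalized counts of each library summed to between 22134483 and 22578580. Ascl5 itself stood at 21.8 and 37.3 in wild type, against 10.6 and 12.1 in mutant. Whether the variant lowers the transcript is not stated, so these values do not check the labels. Xist, which silences an X chromosome in females, stood at 38619 in wild-type 15 and at most 12.7 elsewhere, and the Y-linked Ddx3y was listed at 0 there and at 2382 or more in the rest. Sex was therefore mixed in wild type and not in mutant. All markers fixed for dental epithelium, dental mesenchyme and osteoblasts were above 0 in some library.

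Most histone genes were near the floor and a few carried the signal. Over the 4 libraries, 52 of the 68 had a mean under 10 normalized counts, 5 had a mean of at least 100, and 4 were listed at 0 in every library (Hist1h2aa, Hist1h2ba, Hist2h2aa2 and Hist2h3c1). Of the 272 values, 63 were 0. The 5 highest genes, Hist1h2bc, Hist1h1c, Hist2h2be, Hist2h2aa1 and Hist3h2a, held 77.2% of the summed histone level, with Hist1h2bc alone at 30.7%. Of the values above 0, 76.6% lay within 0.1 of a whole multiple of the library's low step. That step was the median of the library's low values above 0 (0.952 to 1.05 normalized counts). A value of 3 therefore stands for about 3 counted reads, and genes at this level cannot show any but very large differences.

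**Figure D1:**
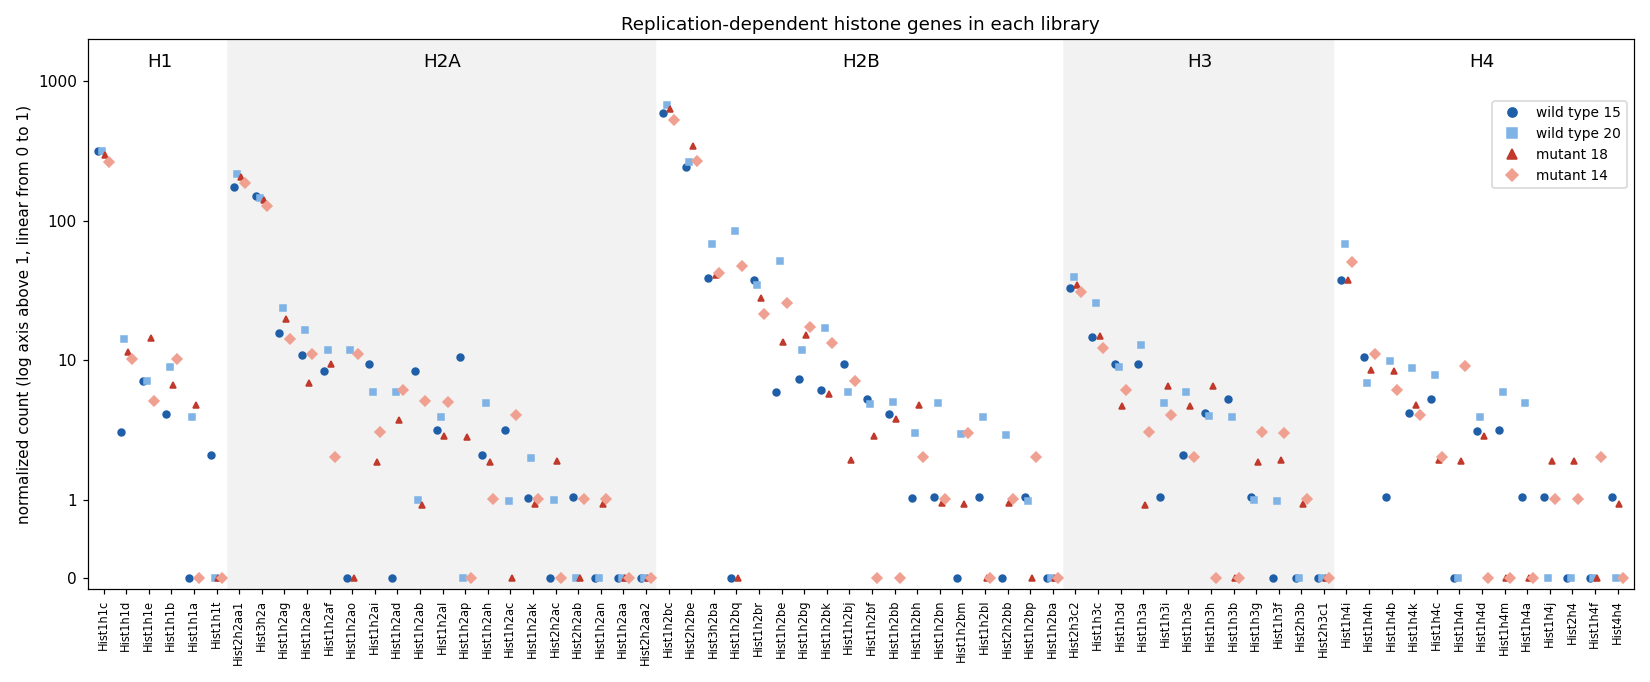
Normalized count of each of the 68 histone genes (y axis, logarithmic above 1 and linear from 0 to 1) in the 4 libraries, grouped by histone class and ordered by mean. Hist1h1c, Hist2h2aa1, Hist3h2a, Hist1h2bc and Hist2h2be stand above 100, and 52 genes have a mean under 10.

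Linker histone H1 compacts chromatin, and its level rested on Hist1h1c. This gene (chromosome 13, 23738808 to 23740367) stood at 317 and 316 normalized counts (wild-type 15 and 20), against 294 and 264 (mutant 18 and 14, the order used throughout). The mutant pair was the lower one, without overlap (log2 fold change -0.18, SE 0.18). Hist1h1d stood at 3.06 and 14.1 in wild type, against 11.5 and 10.2 in mutant. Hist1h1e stood at 7.14 and 7.06 in wild type, against 14.4 and 5.08 in mutant. Both overlapped between genotypes, as did the other H1 genes, whose means ran from 0.526 (the testis form Hist1h1t) to 7.48 (Hist1h1b). The 6 genes summed to 333 and 350 in wild type, against 331 and 289 in mutant.

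Among the H2A genes, whose protein pairs with H2B in the nucleosome core, Hist2h2aa1 stood at 175 and 217 in wild type, against 206 and 187 in mutant. The genotypes overlapped fully (log2 fold change 0.01, SE 0.22). Hist2h2aa1 (chromosome 3, 96245497 to 96246082) has a copy, Hist2h2aa2, whose every 50-base stretch also occurs in Hist2h2aa1 and which is listed at 0 in all libraries. The authors' counting could have placed reads of either gene on Hist2h2aa1. Hist3h2a (chromosome 11, 58954685 to 58956830) stood at 151 and 144 in wild type, against 141 and 128 in mutant. Its mutant values were the lower ones, with a log2 fold change of -0.13 (SE 0.22). Hist1h2ag stood at 15.8 and 23.8 in wild type, against 19.8 and 14.3 in mutant, which overlap. The class summed to 400.3 and 451 in wild type, against 401 and 381 in mutant, so mutant library 18 lay between the wild-type libraries.

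H2B gave the largest class sum of the 5, at 954 and 1236 in wild type, against 1086 and 971 in mutant. Hist1h2bc (chromosome 13, 23684199 to 23692908) stood at 592 and 672 in wild type, against 626 and 522 in mutant. The genotypes overlapped (log2 fold change -0.14, SE 0.17). Hist2h2be (chromosome 3, 96221119 to 96223738) stood at 243 and 262 in wild type, against 341 and 266 in mutant. Among the 5 highest genes, it alone had its mutant pair wholly above the wild-type pair. Mutant library 14 exceeded wild-type 20 by only a few counts (log2 fold change 0.25, SE 0.20). Hist3h2ba stood at 38.5 and 67.6 in wild type, against 40.6 and 41.9 in mutant, so wild-type library 20 alone stood apart. Hist1h2bg stood at 7.36 and 11.9 in wild type, against 15.1 and 17.3 in mutant, higher without overlap (log2 fold change 0.75, SE 0.53).

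H3 carries many of the tail modifications of chromatin, and its genes were low in these libraries. Hist2h3c2, the highest, stood at 33.1 and 39.8 in wild type, against 34.5 and 30.9 in mutant. Hist1h3c stood at 14.8 and 25.8 in wild type, against 15.02 and 12.2 in mutant. These 2 genes overlapped, but several lower H3 genes did not. Hist1h3a stood at 9.46 and 12.9 in wild type, against 0.940 and 3.05 in mutant (log2 fold change -2.35, SE 0.78, limma adjusted p = 0.901). Hist1h3b was at 5.25 and 3.96 in wild type and listed at 0 in both mutant libraries (limma adjusted p = 0.858). Hist1h3d stood at 9.46 and 8.95 in wild type, against 4.70 and 6.11 in mutant. Hist1h3f went the other way, at 0 and 0.990 in wild type, against 1.92 and 3.003 in mutant. None of these passed after adjustment over all genes. The H3 genes summed to 80.5 and 108 in wild type, against 77.7 and 65.4 in mutant, with the mutant values lower by a narrow margin in library 18.

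H4 pairs with H3, and its signal lay mainly in Hist1h4i (chromosome 13, 22040636 to 22041362). That gene stood at 37.8 and 67.6 in wild type, against 37.4 and 50.6 in mutant. Wild-type library 20 was again the highest, and wild-type 15 lay between the mutant libraries (log2 fold change -0.22, SE 0.40). Hist1h4h stood at 10.5 and 6.92 in wild type, against 8.56 and 11.2 in mutant. Hist1h4b stood at 1.05 and 9.94 in wild type, against 8.45 and 6.10 in mutant. Both overlap. Hist1h4a was at 1.05 and 4.96 in wild type and listed at 0 in both mutant libraries, a difference of a few reads. The H4 sum was 68.3 and 116 in wild type, against 70.7 and 87.1 in mutant.

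**Figure D2:**
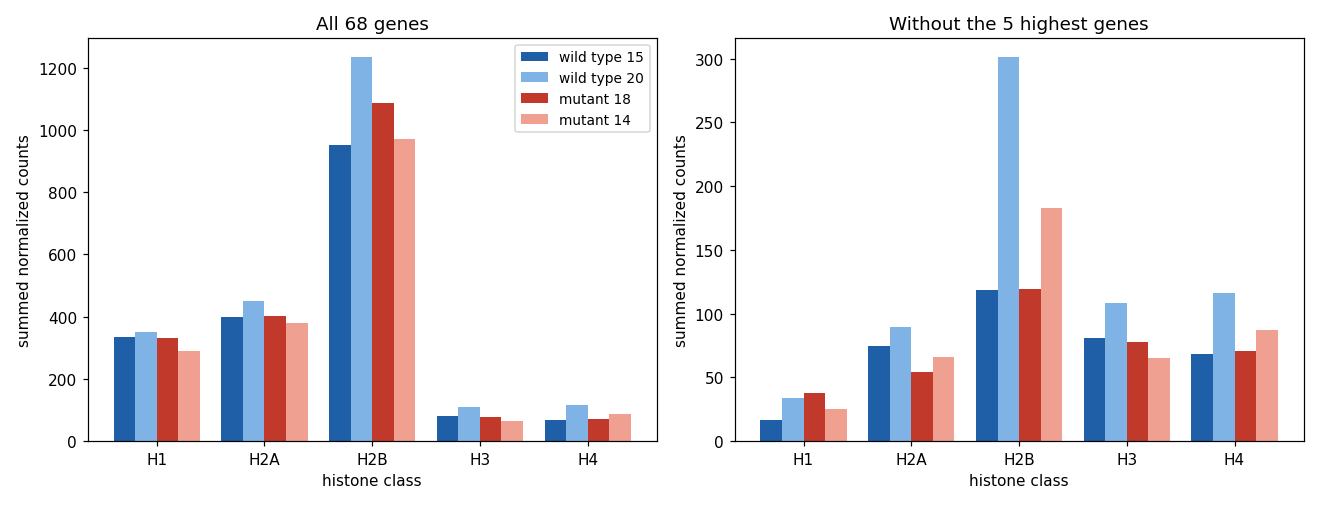
Summed normalized counts (y axis) per histone class in each library, over all 68 genes (left) and without the 5 highest genes (right). Wild-type library 20 is the highest bar in all classes on the left, and on the right in all classes but H1, while wild-type library 15 and mutant 18 are within a few counts of each other for H2A on the left.

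Levels were next set beside the annotated ends of the transcripts, since the tail decides what poly(A) selection keeps. Per kilobase of the longest annotated transcript, the mean level over 4 libraries was 522 for Hist1h2bc, 335 for Hist2h2aa1, 191 for Hist1h1c, 106 for Hist2h2be, 76.8 for Hist3h2ba, 66.5 for Hist1h4i and 65.8 for Hist3h2a. Hist1h2bc is annotated as a transcript of 2 exons in which the search found no stem-loop, and Hist2h2be as a transcript of 2620 bases with none found. Hist1h1c runs 840 bases past its stem-loop and Hist3h2a 1643 bases. Both end with the polyadenylation signal AATAAA in their last 50 bases, as do Hist2h2be and Hist3h2ba. Hist1h2bc, Hist2h2aa1 and Hist1h4i did not hold it there. By its annotated end, Hist2h2aa1 was the exception among these genes, stopping 35 bases after the stem-loop. However, 89.4% of its 50-base stretches also occur in Gm20634, which overlaps it on the same strand, so its counts may include reads of that gene. Of the 11 genes with a mean of at least 20, 6 run more than 100 bases past the stem-loop, 4 had none found, and only Hist2h2aa1 ends near it.

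A long annotated tail was not enough for a high level, and the order of the medians depended on the division by length. The median per kilobase was 7.01 over the 22 genes ending within 100 bases of the stem-loop and 4.36 over the 23 that extend farther. Undivided, the medians were 3.60 and 4.26 normalized counts. A mean of at least 20 was reached by 1 of the 22 and 6 of the 23. The 23 genes with none found are not a class of ends, since they mix tailed or spliced transcripts such as Hist1h2bc with the 15 whose annotation stops at the stop codon. Hist1h2ac extends 2010 bases past the stem-loop and was at 0.825 per kilobase, and Hist4h4 extends 2445 bases and was at 0.175. The AATAAA letters were in the last 50 bases of 14 of the 68 genes, against 40.6% of other coding transcripts. That share too is bounded by the annotation, since a transcript cut at the stop codon cannot show its signal. These are descriptions of annotation, and the annotation used by the authors is not given, so lengths and ends may differ from those behind the counts. By end, 12 of 19 tested genes ending near the stem-loop and 12 of 18 extending past it had a log2 fold change below 0.

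**Figure D3:**
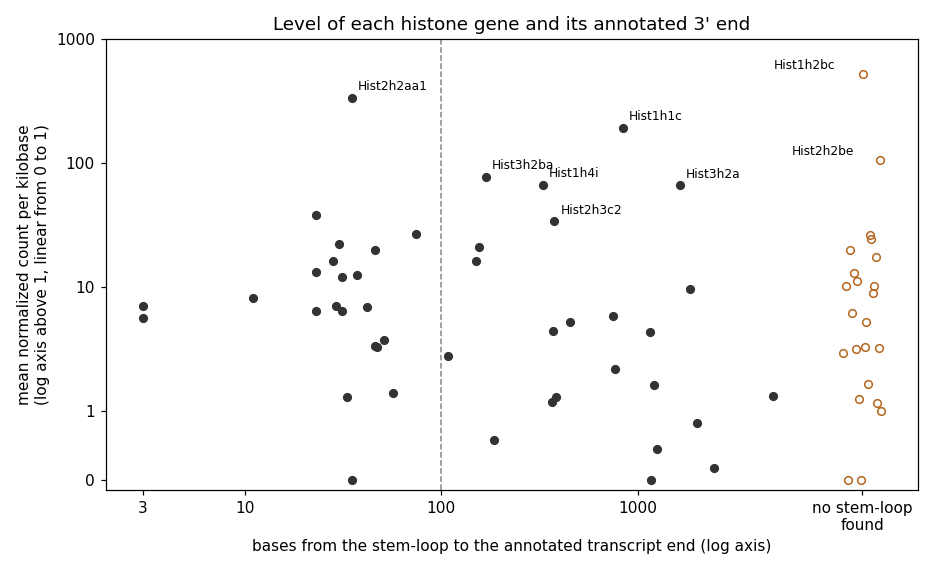
Mean normalized count per kilobase (y axis, logarithmic above 1) of each histone gene against the bases between its stem-loop and the annotated GENCODE transcript end (x axis, logarithmic), with the dashed line at 100 bases. Open circles on the right are the 23 genes with no stem-loop found, 15 of them annotated only to the stop codon, spread sideways for legibility, among them Hist1h2bc at 522 and Hist2h2be at 106.

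H2A and H2B genes often lie head to head and share a promoter region, and 12 such pairs had starts within 1000 bases on GRCm38. Partners in a pair could differ widely in level. Hist1h2bc starts 250 bases from Hist1h2ac, yet Hist1h2bc was between 522 and 672 and Hist1h2ac stood at 3.15 and 0.990 in wild type, against 0 and 4.05 in mutant. Hist2h2be starts 238 bases from Hist2h2ac, which stood at 0 and 0.994 in wild type, against 1.89 and 0 in mutant while Hist2h2be was between 243 and 341. Hist1h2ac and Hist2h2ac rest on a few reads in all, and their annotated lengths differ between GENCODE and RefSeq, so no exact ratio is given. In the other pairs no gene exceeded 37.9 per kilobase, and some partners were close, as with Hist1h2ae at 16.1 and Hist1h2bg at 20.9. The testis pair Hist1h2aa and Hist1h2ba was listed at 0 in all libraries, as were the sperm nuclear protein genes Prm1, Prm2 and Tnp1.

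Promoter windows (250 bases before to 50 after the start, RefSeq GRCm38.p6) were in the table for 62 of the 68 genes, as 63 windows because Hist1h2be has 2. Hist1h2bc, Hist2h2be, Hist1h3a, Hist1h3f, Hist1h2al and Hist2h4 had no entry. Short motifs were searched on both strands, each independently of the others. Windows of head-to-head H2A and H2B genes can cover the same bases, so a match may be counted in both classes. CCAAT, the letters bound by the factor NF-Y, were in all 6 H1, 18 H2A, 17 H2B and 10 H3 windows, but in only 3 of 12 H4 windows, against 37.4% of all 32851 windows. TATAAA was in 55.6% of the histone windows and 13.6% of all. The octamer ATTTGCAT, known from H2B promoters, was in 7 of 17 H2B and 7 of 18 H2A windows, none of the others, and 1.74% of all. AAACACA, known from H1 promoters, was in 5 of 6 H1, 2 of 18 H2A and 2 of 17 H2B windows, none of the others, and 7.18% of all. Below are the 250 bases upstream of Hist1h1c (chr13:23738557-23738806, plus strand) and Hist3h2a (chr11:58954435-58954684, plus strand), the highest H1 gene and an abundant H2A gene, with matches in capitals. The first holds AAACACA and CCAAT, and the second the octamer (as ATGCAAAT) and CCAAT on both strands.
Hist1h1c: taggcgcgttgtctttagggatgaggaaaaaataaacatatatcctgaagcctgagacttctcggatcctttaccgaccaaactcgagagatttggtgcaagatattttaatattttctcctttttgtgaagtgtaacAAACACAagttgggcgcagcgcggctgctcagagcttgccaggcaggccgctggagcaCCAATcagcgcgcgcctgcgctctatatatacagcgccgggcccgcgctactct
Hist3h2a: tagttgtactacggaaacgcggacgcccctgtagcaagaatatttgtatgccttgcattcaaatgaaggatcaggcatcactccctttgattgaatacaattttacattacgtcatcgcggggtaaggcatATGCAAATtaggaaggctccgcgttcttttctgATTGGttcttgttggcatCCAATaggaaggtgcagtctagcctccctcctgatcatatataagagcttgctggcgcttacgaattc
A match is only a run of letters in the window. It says nothing about binding in these cells.

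Several histone genes are near-identical copies, and some were listed at 0 in libraries where their copy was not. In 33 of the 68 genes more than 50% of the 50-base stretches of the transcript also occur in another gene's transcript. Hist1h2bq and Hist1h2br share 100% and 99.8% of theirs. Hist1h2bq had 0 in both wild-type 15 and mutant 18, while wild-type 20 held 84.1 and mutant 14 held 47.6. Hist1h2br stood at 37.8 and 34.7 in wild type, against 28.1 and 21.4 in mutant. Hist1h2br was above 0 in every library, whether or not Hist1h2bq was. Together they came to 37.8 and 119 in wild type, against 28.1 and 69.0 in mutant, which overlap.

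Hist1h2ao and Hist1h2ap, which share 93.5% and 93.1%, were never both above 0. Hist1h2ao stood at 0 and 11.9 in wild type, against 0 and 11.1 in mutant, and Hist1h2ap at 10.6 and 0 in wild type, against 2.84 and 0 in mutant. Hist1h4m and Hist1h4n share 89.8% and 83.2%. Hist1h4m was at 3.16 and 5.92 in wild type and listed at 0 in both mutant libraries. Hist1h4n showed the opposite, 0 in either wild-type library against 1.91 and 9.07 in mutant. Taken singly neither overlapped between genotypes, with limma adjusted p = 0.901 for Hist1h4m and 0.988 for Hist1h4n. Summed, they were at 3.16 and 5.92 in wild type, against 1.91 and 9.07 in mutant, and the genotypes overlapped. Values of single copies are uncertain. In 22 genes the transcript also overlaps a gene on the other strand, and whether the counting used strand is not stated. In 7 it overlaps a gene on the same strand, among them Hist3h2a with Trim17 (31.5% of its 50-base stretches shared with it), Hist2h2aa1 with Gm20634 (89.4%) and Hist1h1e with Hist1h2be. Reads of these genes could have been assigned to either partner or dropped.

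**Figure D4:**
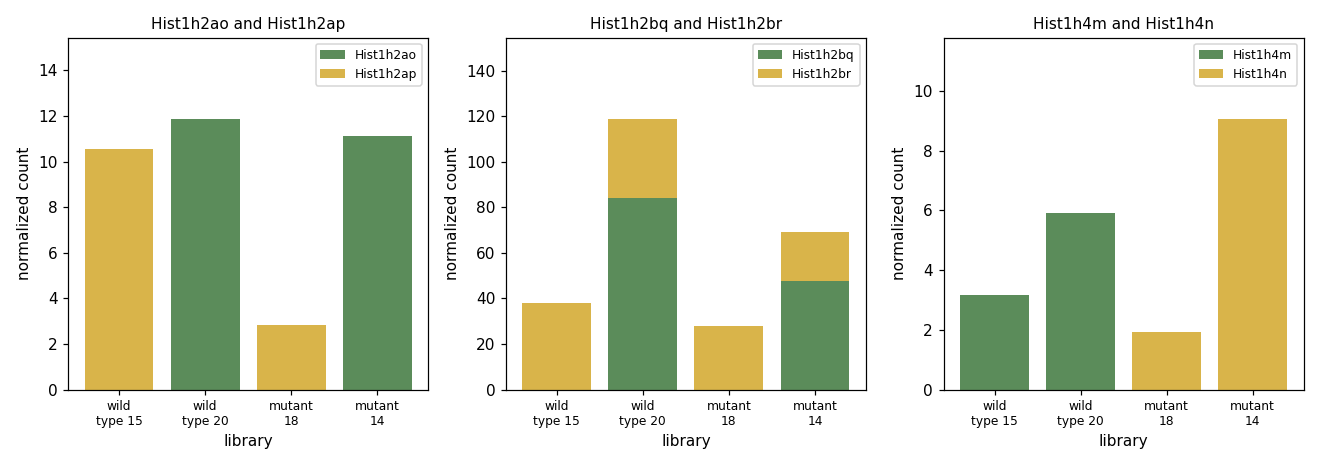
Normalized counts (y axis) of 3 pairs of near-identical histone genes in each library, stacked so that the bar height is the pair's sum. Hist1h2ao and Hist1h2ap, and Hist1h4m and Hist1h4n, are never filled in the same library, whereas Hist1h2br is filled in all 4 and Hist1h2bq in 2, and the summed bars of the genotypes overlap.

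The comparison of mutant with wild type was fitted with limma over 17979 genes with a mean of at least 1, on log2(normalized count + 0.5), a scale that understates changes of low genes. Of the 68 histone genes 55 passed that filter, and 13 did not. None of the 55 passed a Benjamini-Hochberg adjusted p of 0.05 (0.0111% of all genes tested did), with adjusted p between 0.858 and 0.9999. At an unadjusted p under 0.05 there were 3 lower (Hist1h3a, Hist1h3b, Hist1h4m; 1.15% of all genes tested) and 1 higher (Hist1h4n; 3.12%), where 4.27% of all genes passed in either direction. With 2 libraries against 2, an exact permutation test of a single gene cannot go below a two-sided p of 0.333.

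The log2 fold change was below 0 in 36 of the 55 (65.5%) and in 49.4% of all genes tested, with a median of -0.22 for the histone genes and 0.0025 for all genes. In 17 (30.9%) the mutant pair lay wholly below the wild-type pair, as in 14% of all genes tested, and in 5 (9.09%) it lay wholly above, as in 13.4%. By class, 1 of 5 tested H1 genes, 11 of 14 H2A, 11 of 17 H2B, 7 of 10 H3 and 6 of 9 H4 were below 0. The 11 genes with a mean of at least 20 had 8 below 0 and a median of -0.15. The 44 lower genes had 28 below 0 and a median of -0.42, where all 3310 tested genes with a mean under 20 had 47.7% below 0 and a median of 0.06. Neighbouring genes and near-identical copies are counted separately here, so the members are not independent.

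**Figure D5:**
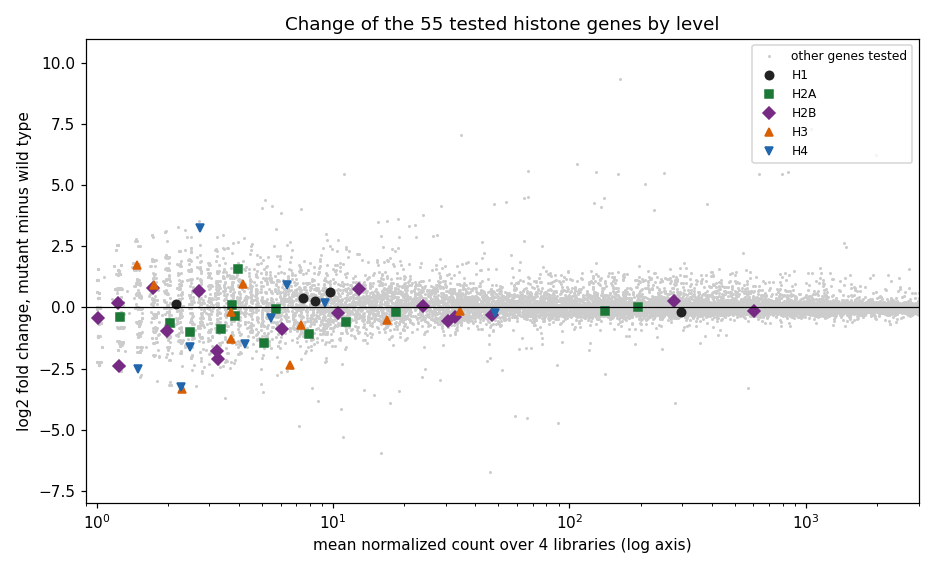
Log2 fold change of mutant minus wild type (y axis) against the mean normalized count (x axis, logarithmic, ending above the highest histone gene) for the 55 tested histone genes by class, over other tested genes in grey. The histone genes above 100 lie between -0.18 and 0.25, and the larger changes belong to genes of a few counts.

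The lower median and the larger count below 0 were nearly lost without wild-type library 20 and grew without wild-type 15. The median log2 level of the 55 genes was 2.24 in wild-type library 15, 2.69 in wild-type 20, 2.38 in mutant 18 and 2.48 in mutant 14, so both mutant libraries lay between the wild-type libraries. The summed level of all 68 was 1836 and 2260 in wild type, against 1967 and 1794 in mutant. Without the 5 highest genes it was 358 and 649 in wild type, against 359 and 427 in mutant, again with library 20 apart. Without wild-type library 20, 27 of 53 genes were below 0 and the median was -0.02. Without wild-type 15 they were 43 of 54, with a median of -0.66. Wild-type 15 was the library with high Xist and with Ddx3y at 0, unlike wild-type 20 and both mutant libraries. Leaving out a wild-type library thus also changes the sexes compared, and sex and library cannot be told apart here. By definition, the 17 genes whose mutant pair lay wholly below were also below wild-type 15, and the 5 wholly above were also above it.

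Replacement histones, which are made outside S phase from mostly polyadenylated mRNAs, spanned a wide range. Per kilobase, H3f3b was at 6909, H2afz at 6545, H3f3a at 5419 and the linker variant H1f0 at 4132, above Hist1h2bc at 522. The centromeric Cenpa (610) and H2afv (688) were near Hist1h2bc, and H1fx (366) and H2afj (322) were below it. The oocyte linker form H1foo was at 1.995 per kilobase, and H1fnt, H2afb1, H2afb2 and H2afb3 were listed at 0 in all libraries. Of 12 tested replacement variants 6 were lower and 6 higher in mutant, and 0 passed (median log2 fold change 0.0024). H2afx, the DNA damage variant whose transcripts come both with a stem-loop and with a tail, stood at 1941 and 1931 in wild type, against 1352 and 1812 in mutant (log2 fold change -0.31, SE 0.17, limma adjusted p = 0.9999). H2afj stood at 473 and 585 in wild type, against 531 and 769 in mutant. H2afv stood at 1070 and 1268 in wild type, against 1028 and 1128 in mutant, and H2afj and H2afv both overlap between genotypes. The summed variants were at 51871 and 61783 in wild type, against 59316 and 57418 in mutant, with library 20 the highest and library 15 the lowest.

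Among genes that form the histone 3′ end, none passed. Of 32 factors of histone mRNA processing and decay, 14 were lower, 18 higher and 0 passed, with 0 at an unadjusted limma p under 0.05 (median 0.03). Slbp, given for its role though outside the naming rule, stood at 1783 and 2155 in wild type, against 2126 and 2007 in mutant. The members with the smallest p were the scaffold Sympk (2668 and 2329 in wild type, 2082 and 2458 in mutant), the decay helicase Upf1 (2265 and 1912, then 1717 and 2108) and the kinase Cdk9 (1402 and 1272, then 1049 and 1296). All 3 were lowest in mutant library 18 and overlapped between genotypes. Their log2 fold changes were -0.14, -0.13 and -0.20.

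Histone chaperones, which carry new histones to DNA, had 15 of 22 lower, 7 higher and 0 passing (median -0.03). The centromeric chaperone Hjurp stood at 1871 and 1759 in wild type, against 1638 and 1573 in mutant. It was 1 of 2 among the 22 whose mutant pair lay wholly below, where 14% of all genes tested did. Hira (1012 and 937, then 813 and 981) and the FACT subunit Ssrp1 (4269 and 4553, then 3887 and 4303) overlapped. The 43 genes of DNA replication and S phase had 21 lower, 22 higher and 0 passing (median 0.01). Prim2, a primase subunit, stood at 515 and 605 in wild type, against 658 and 628 in mutant. The clamp loader subunit Rfc5 was at 590 and 648, then 509 and 579, and the dUTPase Dut at 913 and 931, then 685 and 904. The mutant pair lay wholly below in 6 of the 43 and wholly above in 2, where all genes tested gave 14% and 13.4%. The S phase genes summed to 50870 and 56679 in wild type, against 54193 and 53792 in mutant, again with library 20 the highest and 15 the lowest.

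Of 26 genes of G2 and mitosis, 16 were lower, 10 higher and 0 passed (median -0.02). The mitotic kinase Plk1 stood at 969 and 943 in wild type, against 741 and 867 in mutant. Cdc20 was at 989 and 1176, then 968 and 961, and the spindle factor Tpx2 at 2344 and 2531, then 2237 and 2143. These 3, given for the smallest p in the list, had lower mutant values without overlap. Over the list the mutant pair lay wholly below in 6 of 26 genes and wholly above in 0, where all genes tested gave 14% and 13.4%. Of 18 inhibitors and genes of cell cycle exit, 7 were lower, 11 higher and 0 passed (median 0.05). The inhibitor Cdkn2b stood at 59.7 and 77.2 in wild type, against 97.8 and 97.1 in mutant, Btg2 at 674 and 671, then 759 and 759.7, and Tob1 at 888 and 654, then 899 and 932. In each of these last 3, also given for the smallest p, both mutant values were the higher ones. The mutant pair lay wholly above in 5 of the 18 genes and wholly below in 2, where all genes tested gave 13.4% and 14%. Each of these 4 lists had 0 members at an unadjusted limma p under 0.05.

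Summed markers of other cell types varied among the libraries, and their part in the histone values was not tested. Higher or lower here is the sign of the log2 fold change, and no marker passed after adjustment. At an unadjusted limma p under 0.05, 8 keratinocyte, 5 salivary gland, 3 melanocyte and 1 neuron markers were higher (3.12% of all genes tested). Lower were 3 osteoblast, 3 dental mesenchyme and 2 dental epithelium markers (1.15% of all genes tested). The erythroid, muscle and male germ cell lists had 0. Summed keratinocyte markers (12 of 12 tested higher) were at 119695 and 120005 in wild type, against 186113 and 278475 in mutant. All 8 tested salivary gland markers were higher, with sums of 499 and 382 in wild type, against 578 and 7060 in mutant. Melanocyte markers (6 of 6 higher) summed to 343 and 375, then 499 and 534, and neuron markers (9 of 9 higher) to 1566 and 1719, then 1567 and 4330. Osteoblast markers (6 of 6 lower) summed to 635798 and 625487, then 515490 and 483224. Dental epithelium (5 of 7 lower) summed to 5886 and 11788, then 8726 and 5806, and dental mesenchyme (5 of 6 lower) to 4932 and 6631, then 5080 and 4003. Wild-type library 20 was the highest in both dental lists. Erythroid markers (4 of 12 lower) summed to 260150 and 112444, then 108967 and 270099, high in libraries 15 and 14. Muscle markers (3 of 8 lower) summed to 144628 and 107941, then 163405 and 87261. No male germ cell marker sum exceeded 31.0, and 3 of its 8 markers were at 0.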

How the data were processed

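Values are the authors' deposited table of 1 signal value per gene and library, a normalized count. The submitters' processing notes name DESeq2 and the build mm10. For the aligner, counter, strand setting, annotation and versions, nothing is given in the sources used here. Values are not whole numbers, so no count test was run and no counting interval is given.

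Values were used as deposited. Genes with a mean of at least 1 were fitted with limma 3.58.1 in R 4.3.3 on log2(value + 0.5), with a mean-variance trend, for mutant against wild type. P-values were adjusted by Benjamini-Hochberg over all genes tested. SE is limma's moderated error. The fit was tested on simulated data with changes placed only in genes above the level of most histone genes. That test therefore does not cover low genes. Library numbers are not shared between genotypes, so nothing was paired.

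Members and lists were chosen with earlier results of these data known. Of the histone genes, 22 are given by rule: the 3 highest of each class, any that passed, and the 4 smallest p in each direction. Other gene lists give the 3 smallest p. Stem-loops, lengths and shared stretches came from GENCODE M21. All 68 genes matched a RefSeq gene. Alternatives covered filter, pseudocount, scaling, trend, weights, summed copies and each library left out.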

Additional observations from a re-analysis of the deposited data

How the results depend on the processing

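No histone gene passed in any setting. With each library left out, the genes below 0 ranged from 27 to 43 and their median from -0.66 to -0.020, and over all genes 0 to 6 passed instead of 2. With a mean of at least 5 the genes below 0 were 19 of 28, and with a mean of at least 20 they were 8 of 11, since fewer were tested. Other filters, pseudocounts, scalings and summed copies, the last chosen after seeing the data, left the count between 34 and 39 and the median between -0.23 and -0.18. Over all genes, 1 passed with no filter, 4 with pseudocount 1, 1 with no trend and 0 with vooma weights, and the cause was not tested. The log2 ratio of the summed level, mutant over wild type, was -0.12, and -0.36 without the 5 highest genes, an alternative chosen after seeing the data. Of the 22 genes given by rule, 8 changed sign with a library left out, and 0 in the other settings among those each setting kept. Summing copies left no single value for Hist1h4m, Hist1h4n and Hist2h2aa1, and the summed Hist1h4m and Hist1h4n had a ratio of means, mutant over wild type, of 1.21. The log2 fold changes of the 8 ranged from -0.37 to 1.67 for Hist1h1d, -0.45 to 0.97 for Hist1h1e, -0.49 to 0.087 for Hist1h2ag, -0.14 to 0.16 for Hist2h2aa1, -0.71 to 0.10 for Hist3h2ba, -0.44 to 2.31 for Hist1h4b, -0.10 to 0.47 for Hist1h4h and -0.63 to 0.20 for Hist1h4i. No paired analysis was possible because the genotypes share no library number. At a few reads per gene, differences short of several-fold were not detectable in most members.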

Other observations

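Some H2B genes followed library rather than genotype, a pattern picked after their values were seen. Hist1h2be, whose annotated transcript is spliced and runs past the stem-loop, stood at 5.94 and 51.4 (wild-type 15 and 20), against 13.4 and 25.6 (mutant 18 and 14). Hist1h2bk stood at 6.14 and 17.1 in wild type, against 5.74 and 13.2 in mutant. Both were higher in wild-type 20 and mutant 14 than in the other libraries, as was Hist1h2bq. Genes of other classes did the same, among them Hist1h1b, Hist1h2ad, Hist1h2ao and Hist1h4i. Without the 5 highest genes, the H2B sum was 119 and 301 in wild type, against 119 and 183 in mutant. By genomic cluster, the 55 Hist1 genes on chromosome 13 summed to 1193 and 1526 in wild type, against 1197 and 1136 in mutant. The 10 Hist2 genes on chromosome 3 summed to 452 and 523, then 587 and 488, and the 2 Hist3 genes on chromosome 11 to 189.6 and 212, then 182 and 170.0. Hist4h4, the only Hist4 gene (chromosome 6), was at 1.06 and 0, then 0.945 and 0. Hist1h2al, which the symbol rule takes as an H2A gene, is a processed pseudogene in GENCODE M21 and had a mean of 3.76.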
